A study of Mus musculus with 12 samples.

Results

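The Reg genes (regenerating islet-derived) encode small secreted C-type lectins, proteins with a carbohydrate-recognition fold that gut epithelial cells release into the lumen. The 5 members described here, Reg3b, Reg3g, Reg3a, Reg1 and Reg4, were taken by their gene symbols, a choice made with earlier results of these data known, and all 5 were found among the 14244 gene rows of the expression table. RNA was sequenced from gut epithelial cells of 8-week-old male C57BL/6 mice, as 5 wild type (WT) and 7 Chd8L+/- libraries with 1 library per mouse. Chd8L+/- mice carry 1 copy of Chd8, a chromatin remodeler, that lacks exons 11 to 13. The deletion was germline and so present in every tissue and not only in the gut, and the mice were born to Chd8L+/- fathers and WT mothers together with the WT littermates that served as controls. Values are normalized read counts, that is, reads of a gene after the authors' division by the library's size factor. The libraries held 15691662 to 20761315 gene reads each.

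Reg3g binds peptidoglycan and kills mainly Gram-positive bacteria, keeping them away from the epithelial surface, while its relative Reg3b acts mainly on Gram-negative bacteria. Enterocytes and Paneth cells make both, and their transcription rises when microbes or the cytokine IL-22 act on the epithelium through STAT3. Reg3a is a further lectin of the same subgroup, Reg1 was first described in regenerating pancreatic islets and is also made in the small intestine, and Reg4 is made by secretory cells of the crypt. In these libraries the defining epithelial markers were abundant, with 27667 to 52974 normalized counts of Epcam per library.

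Reg3b, Reg3a, Reg1 and Reg3g lie within 98216 bases of chromosome 6 (GRCm38, 78370657 to 78468872). Reg3d and Reg2 lie between them, and no other protein-coding gene is annotated inside that span. Reg4 lies on chromosome 3, from 98222156 to 98236748. The 140 bases before the RefSeq start of Reg3b and Reg3g are shown because the levels of these genes ran in parallel, and those of Reg4 because its level ran the other way (RefSeq, GRCm38.p6). Each run is written 5′ to 3′ in the direction of the gene, and capitals mark a match to the TATA box TATAAA or to the STAT dimer motif TTCNNNGAA, searched on both strands.
Reg3b (chr6:78370745-78370884, plus strand): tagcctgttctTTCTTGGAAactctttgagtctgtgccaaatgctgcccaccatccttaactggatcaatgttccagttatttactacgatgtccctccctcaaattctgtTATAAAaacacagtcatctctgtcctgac
Reg3g (chr6:78468875-78469014, minus strand): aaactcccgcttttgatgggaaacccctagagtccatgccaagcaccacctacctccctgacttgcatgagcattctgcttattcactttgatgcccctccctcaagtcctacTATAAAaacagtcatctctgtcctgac
Reg4 (chr3:98222016-98222155, plus strand): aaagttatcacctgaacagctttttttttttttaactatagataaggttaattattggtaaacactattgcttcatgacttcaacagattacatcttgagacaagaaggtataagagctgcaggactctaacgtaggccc

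The upstream stretches of Reg3b and Reg3g were identical at 71% of their aligned bases and shared an unbroken run of 20 bases next to the start. For Reg3b and Reg4 the identity was 52.3% and the longest shared run was 6 bases. A TATA box began 29 bases before the start of Reg3b, 27 before that of Reg3g, with a further match 161 bases before it on the other strand, and 30 before that of Reg1. It was found in the 250-base windows of 12.4% of 32851 RefSeq promoters. The STAT dimer motif began 129 bases before the start of Reg3b and occurs in 7.02% of those windows. Neither motif was found in the windows of Reg3a and Reg4, and the STAT motif was not found in those of Reg3g and Reg1, which says only that these letters are not in these windows.

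The coding sequence of Reg3b was 76.4% identical to that of Reg3g, 74.7% to that of Reg3a, 62.2% to that of Reg1 and 63.2% to that of Reg4. Reads were 75 bases long, and no pair among these 5 genes, Reg2 and Reg3d shares a stretch of that length in its annotated transcripts. The longest run shared by any pair was the 35 bases common to Reg3b and Reg3g.

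The comparison of genotypes asked whether loss of 1 copy of Chd8L changes these lectins. Reg3b, Reg3g and Reg3a had higher mean levels in Chd8L+/- than in WT libraries, by log2 fold changes of 2.40 to 2.76, Reg4 had a lower mean level, and Reg1 showed a smaller difference than its spread. None of the 5 passed an adjusted p of 0.05 in limma over all 12808 genes tested, a threshold that 0.0234% of the genes passed. Without adjustment (p of 0.05 or less), 3 members were higher and 1 was lower, beside 12.5% of all genes higher and 11.8% lower. For none of the 5 did the genotypes separate without overlap, as they did for 0.515% of all genes. In RNA from pooled cells, fewer cells of a type and less RNA per cell cannot be told apart. The study, which used DESeq2 on these same libraries, reported Reg3b and Reg3g among its most strongly raised genes. It also reported both as higher by real-time PCR. Their direction in these libraries is therefore not independent evidence.

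**Figure D1:**
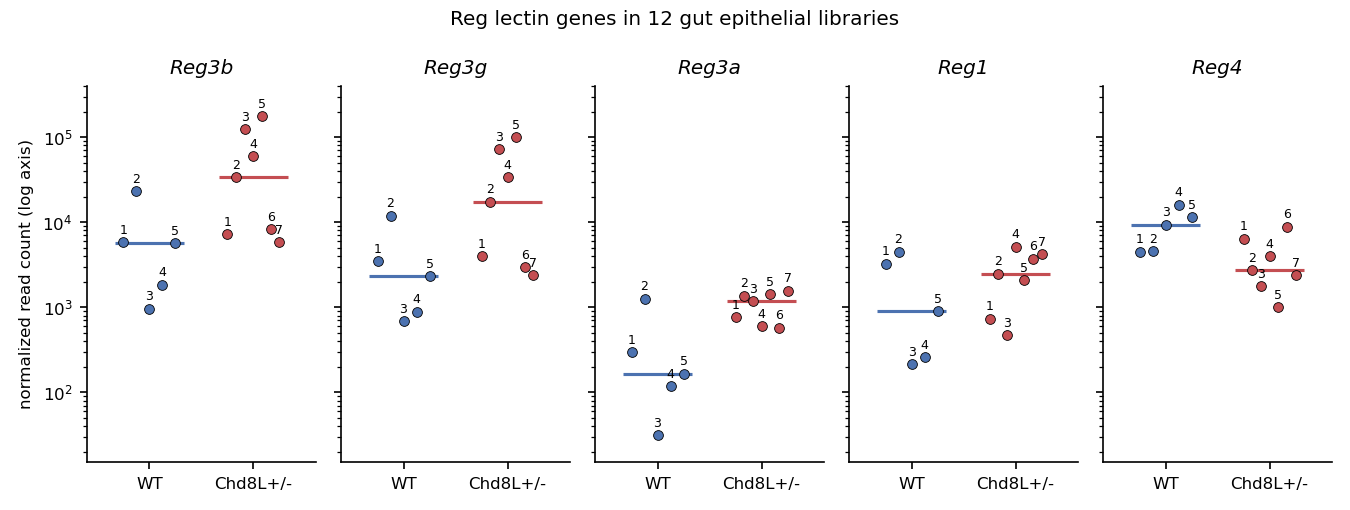
Normalized read counts (log axis) of the 5 Reg genes in each WT (blue) and Chd8L+/- (red) library, with the replicate number above each point and a line at the group median. Reg3b and Reg3g are highest in Chd8L+/- replicates 2 to 5, Reg3a lies at 576 or more in all 7 Chd8L+/- libraries, and Reg4 lies below the WT median of 9405 in all 7.

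Reg3b, the lectin active on Gram-negative bacteria, had 5802, 23008, 961, 1843 and 5673 normalized counts in WT replicates 1 to 5. In the 7 Chd8L+/- libraries its lowest, median and highest values were 5874, 33627 and 176829. The WT libraries thus spread over a 23.9-fold range and the Chd8L+/- libraries over a 30.1-fold range. Chd8L+/- replicates 2, 3, 4 and 5, at 33627, 123476, 59323 and 176829, were above every WT library, while replicates 1, 6 and 7, at 7271, 8347 and 5874, lay inside the WT range. The library names open with a letter, A to D, whose meaning the labels do not state, and A, B and C hold both genotypes. Among the libraries of each of these letters every Chd8L+/- library had more Reg3b than every WT library. For A the values were 59323 and 123476 against 5802 and 23008, and for B 176829 against 1843 and 5673. For C they were 7271, 8347 and 33627 against 961. Letter D holds only Chd8L+/- replicate 7, at 5874, the lowest of its group. The names also hold a number of unstated meaning, by which the genotypes did not always separate. Chd8L+/- replicate 1, at 7271, shares its number with WT replicate 2, at 23008, and with WT replicate 4, at 1843. The other numbers found in both genotypes did separate, narrowly so for Chd8L+/- replicate 7, at 5874, and WT replicate 5, at 5673. In Chd8L+/- replicate 5, Reg3b alone took 0.993% of all reads counted on genes (95% Wilson interval 0.988 to 0.997), against 0.00472% (0.00443 to 0.00503) in WT replicate 3. These intervals cover counting error only. The mean was 59249 ± 66769 (SD, n = 7) in Chd8L+/- and 7457 ± 8965 (SD, n = 5) in WT. The log2 fold change, on the scale of log2(value + 1), was 2.76 (standard error 0.96, limma adjusted p = 0.129), and 3.94 with the letter as a block (limma adjusted p = 0.0434). The two-sided exact permutation test of the genotype labels (792 assignments) gave p = 0.0341, where 0.00126 is the smallest p it can give. That p rose above 0.05 when any 1 of WT replicates 3 and 4 and Chd8L+/- replicates 2, 3, 4 and 5 was left out, to between 0.0541 and 0.0848.

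Reg3g, the peptidoglycan-binding lectin, followed Reg3b from library to library. Its WT values were 3494, 11916, 686, 890 and 2322 normalized counts in replicates 1 to 5. Its lowest, median and highest Chd8L+/- values were 2407, 17462 and 99391. The same 4 Chd8L+/- libraries as for Reg3b were above every WT library, and the other 3, at 3960, 2977 and 2407, were not. The log2 fold change was 2.66 (standard error 1.01, limma adjusted p = 0.147), with the letter as a block 3.86 (limma adjusted p = 0.0434), and the exact permutation test gave p = 0.0505. Without WT replicate 2 the exact permutation p was 0.0333, and it was 0.0455, 0.0368 and 0.0303 without Chd8L+/- replicate 1, 6 or 7. Leaving out any other single library raised that p, to between 0.0636 and 0.109. By their spread within genotypes, Reg3b and Reg3g ranked 66 and 43 of the 12808 genes (SD of 1.93 and 2.02 on the log2 scale, median of all genes 0.345).

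Reg3a behaved differently within the mutant group. Its WT values were 299, 1266, 31.3, 118 and 166 normalized counts in replicates 1 to 5, a 40.5-fold range. The Chd8L+/- libraries had 576 at the lowest, 1173 at the median and 1575 at the highest, a 2.73-fold range. All 7 lay above the WT median, and above every WT library other than replicate 2, and 3 of the 7 also exceeded WT replicate 2. The highest Chd8L+/- library was replicate 7, which had the lowest Reg3b of that group. The log2 fold change was 2.40 (standard error 0.65, limma adjusted p = 0.121) and the exact permutation test gave p = 0.00884. With each library left out in turn, the exact permutation p stayed between 0.00303 and 0.0212. With surrogate variable analysis, edgeR or DESeq2 the log2 fold change of Reg3a was smaller, at 0.91, 1.5 and 1.51.

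Reg1, the islet-derived founder of the family, had 3266, 4523, 214, 258 and 895 normalized counts in WT replicates 1 to 5. Its lowest, median and highest Chd8L+/- values were 468, 2489 and 5144. The groups overlapped over nearly their whole range, with only Chd8L+/- replicate 4 above the highest WT library. The log2 fold change of 1.11 (standard error 0.81, limma adjusted p = 0.405) was not larger than the spread between libraries, and the exact permutation test gave p = 0.268. Chd8L+/- replicate 3, among the highest for Reg3b, had the lowest Reg1 of its group.

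Reg4, the crypt secretory cell lectin, was the member with a lower level in the mutants. WT replicates 1 to 5 had 4522, 4540, 9405, 16124 and 11414 normalized counts. The Chd8L+/- libraries had 1011 at the lowest, 2732 at the median and 8870 at the highest. All 7 lay below the WT median, and 5 of them lay below the lowest WT library. The exceptions were Chd8L+/- replicates 1 and 6, at 6418 and 8870. The log2 fold change was -1.40 (standard error 0.49, limma adjusted p = 0.133) and the exact permutation test gave p = 0.0391. As a share of all reads counted on genes, the log2 difference of Reg4 was -1.28 (exact permutation p = 0.0518). Without WT replicate 3, 4 or 5 or Chd8L+/- replicate 2, 3, 4, 5 or 7, the exact permutation p of Reg4 was between 0.0541 and 0.0909. Markers of secretory cells had median log2 fold changes of -0.28 for 13 Paneth cell genes (4 higher, 9 lower), -0.12 for 7 goblet cell genes (1 higher, 6 lower) and -0.15 for 11 enteroendocrine genes (5 higher, 6 lower), and limma called none of them. Before adjustment (p of 0.05 or less), 3, 2 and 3 of these genes were lower and 0 were higher. Single genes of these lists had values below or near that of Reg4, with log2 fold changes of -1.93 for Ang4, a secreted ribonuclease, -1.25 for Spink4, a goblet cell protease inhibitor, and -1.17 for Mptx2.

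Of the related genes that are no members, Reg3d was close to the limit of detection. It had 0.889, 4.06, 0, 1.98 and 0 normalized counts in WT replicates 1 to 5. In the Chd8L+/- libraries the lowest was 2.73, the median 6.22 and the highest 29.3. Its mean of 6.32 over all libraries was under the minimum of 10 for the test over all genes, and 5 of 7 Chd8L+/- libraries exceeded the highest WT library (exact permutation p = 0.00758 on the log2 scale). As for Reg3b, the highest value was that of Chd8L+/- replicate 5. Reg2 was not analysed here.

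Levels of different genes were compared per kilobase of the first annotated protein-coding transcript. The WT medians were 9212 normalized counts per kilobase for Reg4, 7245 for Reg3b, 3012 for Reg3g, 1164 for Reg1 and 201 for Reg3a. Reg4 stood above Reg3b in 3 of 5 WT libraries, so the order of these neighbours was not fixed. In Chd8L+/- the medians per kilobase were 42946 for Reg3b, 22649 for Reg3g, 3237 for Reg1, 2676 for Reg4 and 1421 for Reg3a. Reg3b stood above Reg4 in all 7 of these libraries, whereas Reg1 and Reg4 were not ordered, with Reg1 higher in 4 of 7. Reg3b exceeded Reg3g, and Reg3g exceeded Reg3a, in 12 of 12 libraries.

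Reg3b and Reg3g kept a narrow range of proportions although each varied widely between libraries. Reg3b had between 1.40 and 2.80 times the normalized count of Reg3g in every library. In WT the log2 ratio averaged 0.90 ± 0.31 (SD, n = 5) and among the mutants 1.0 ± 0.27 (SD, n = 7), a difference of 0.10 (exact permutation p = 0.554) that was smaller than the spread between libraries. The highest ratio was that of Chd8L+/- replicate 6, at 2.80, and the lowest that of WT replicate 3, at 1.40, which also had the lowest level of both genes.

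Covariation was measured for the 10 pairs of members over the 12 libraries, on the log2 scale, with p-values from 100000 permutations and Benjamini-Hochberg adjustment over the 10 pairs. All points come from the same libraries and share their scaling. For Reg3b and Reg3g, Pearson's r was 0.99 and Spearman's rho 0.97 (permutation p = 1e-05, the smallest the permutations can give, and 2e-05, adjusted 0.0001 and 0.0002). It was 0.99 for the deviations from the genotype means, and 0.99 again without Chd8L+/- replicates 3 and 5, which lie farthest from the median of Reg3b. The close relation therefore held within genotypes as well as across them.

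Reg3b and Reg4 ran in opposite directions, with r = -0.82 and rho = -0.80 (permutation p = 0.00135 and 0.00296, adjusted 0.0045 and 0.0074). For the deviations from the genotype means r was -0.71 (permutation p = 0.0184, adjusted 0.0485), and without Chd8L+/- replicates 3 and 5 it was -0.63 (permutation p = 0.0496). Within the 7 Chd8L+/- libraries r was -0.73 (exact permutation p = 0.0692, adjusted 0.181). Reg3b and Reg3a had r = 0.76 and rho = 0.71 over all libraries (permutation p = 0.00358 and 0.0124, adjusted 0.00792 and 0.0248). Among the 7 Chd8L+/- libraries alone that r was 0.25 (exact permutation p = 0.572), and for the deviations from the genotype means it was 0.59 (permutation p = 0.0256, adjusted 0.0513). Reg3b and Reg1 had r = 0.43 and rho = 0.41 (permutation p = 0.165 and 0.193). Their r was -0.24 within Chd8L+/- (exact permutation p = 0.563) and 0.79 without Chd8L+/- replicates 3 and 5 (permutation p = 0.0067), so its size and sign rested on which libraries were used.

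Reg3g and Reg4 had r = -0.83 and rho = -0.80 (permutation p = 0.0011 and 0.00277, adjusted 0.0045 and 0.0074), and -0.72 within Chd8L+/- (exact permutation p = 0.0722). Reg3a and Reg4 had r = -0.75 and rho = -0.83 (permutation p = 0.00396 and 0.00114, adjusted 0.00792 and 0.0057), and -0.81 within Chd8L+/- (exact permutation p = 0.0325, adjusted 0.163). Over all libraries Reg4 thus ran opposite to all 3 Reg3 lectins. Within Chd8L+/- the r of Reg4 with each of them was also negative, but none passed 0.05 after adjustment. Reg3g and Reg3a had r = 0.72 and rho = 0.66 (permutation p = 0.00801 and 0.0227, adjusted 0.0133 and 0.0379), and 0.25 within Chd8L+/- (exact permutation p = 0.573). Reg3a and Reg1 had r = 0.66 and rho = 0.48 (permutation p = 0.0178 and 0.115, adjusted 0.0254 and 0.165), but r was 0.15 without WT replicates 3 and 4 (permutation p = 0.693), so this relation rested on them. Neither Reg3g and Reg1 (r = 0.38, rho = 0.35, permutation p = 0.224 and 0.268) nor Reg1 and Reg4 (r = -0.41, rho = -0.35, permutation p = 0.187 and 0.266) passed 0.05.

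**Figure D2:**
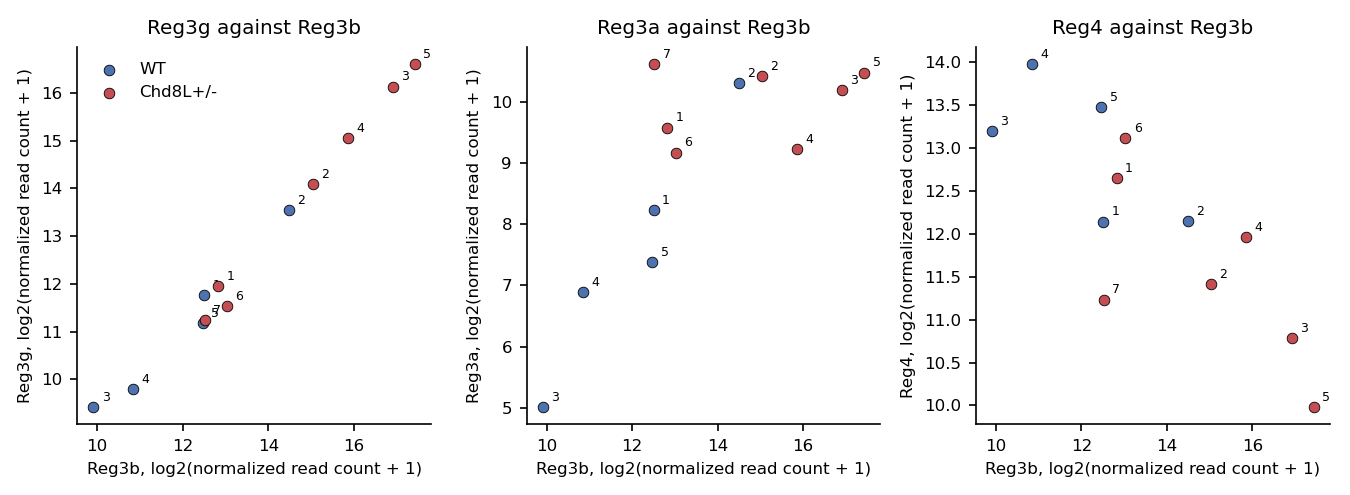
Log2(normalized read count + 1) of Reg3g, Reg3a and Reg4 against that of Reg3b, 1 point per library (WT blue, Chd8L+/- red, replicate numbers beside the points). Reg3g follows Reg3b along a line (r = 0.99), Reg3a shows no clear slope among the Chd8L+/- libraries (r = 0.25 within them), and Reg4 falls with Reg3b (r = -0.82).

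The genes whose pattern over the 12 libraries was most like the mean of Reg3b and Reg3g were Frrs1 (r = 0.945), Gmds (0.944), Elovl7 (0.935), Mid2 (0.933), Itgam (0.930), Isx (0.926), Pdia3 (0.922), Bfsp1 (0.920), Trim72 (0.916) and C4b (0.915). Gmds makes GDP-fucose, Isx is an intestinal homeobox factor, Pdia3 is a disulfide isomerase of the endoplasmic reticulum, Itgam is the CD11b integrin chain of myeloid cells, and C4b is a complement component. For the deviations from the genotype means their r was between 0.877 and 0.956. Of all genes tested, 0.172% reached an r of 0.9 with this mean. Gmds ranged from 1215 to 2739 normalized counts in WT and from 1454 to 5068 in Chd8L+/- libraries, and Itgam from 36.7 to 143 and from 94.7 to 425. Reg3a stood at rank 529 of the 12808 genes by this measure.

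Genes around the Reg3 lectins in their pathway had fold changes of both signs. Of 21 tested genes listed as epithelial targets of IL-22 and STAT3, 7 were higher and 14 lower. Their median log2 fold change was -0.36 (all genes 0.01), and 0 passed the adjusted threshold of limma. At an unadjusted p of 0.05 or less, 0 were higher and 7 were lower. Those 7 include Sprr2a1, Sprr2a2 and Sprr2a3, each counted as a gene. Whether the listed genes answer to this pathway alone was not tested, so the counts do not measure its activity. The cornified envelope gene Sprr2a3 had a log2 fold change of -2.18 (standard error 0.65, limma adjusted p = 0.121), and its near-identical copies Sprr2a1 and Sprr2a2, whose reads can be split between them, had -1.97 each. Duoxa2, the maturation factor of the hydrogen peroxide-producing oxidase Duox2, had -2.23 (standard error 0.82, limma adjusted p = 0.138). In Sprr2a3 WT replicate 2 stood with the mutants, at 12773 normalized counts against 85007 to 311982 in the other WT libraries and 15372 to 38412 in Chd8L+/-.

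Within this list, 3 targets picked after their values were seen had their highest levels among Chd8L+/- replicates 3, 4 and 5. Lcn2, a siderophore-binding protein under the filter on low values, had 8.00, 22.4, 10.5 and 10.5 normalized counts in Chd8L+/- replicates 2 to 5 and at most 4.06 in any other library. Saa1, an acute-phase apolipoprotein, was highest in Chd8L+/- replicates 5, 4 and 3, at 6115, 1505 and 853 normalized counts, and ranged from 67.6 to 788 in WT, but Chd8L+/- replicate 2, also rich in Reg3b, had 283. Nos2, the inducible nitric oxide synthase, had 3513 and 2779 in Chd8L+/- replicates 5 and 3 and 418 and 643 in replicates 2 and 4, against 136 to 628 in WT. Saa1 and Nos2 had log2 fold changes of 0.79 (standard error 0.89, limma adjusted p = 0.600) and 0.72 (standard error 0.98, limma adjusted p = 0.672).

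Of 13 tested receptors and signaling genes of the IL-22, IL-6 and STAT3 pathway, 3 were higher and 10 lower, with a median log2 fold change of -0.09, and 0 passed the adjusted threshold. Cish, a cytokine signaling inhibitor, had -1.07 (standard error 0.26, limma adjusted p = 0.121), and Il10rb, the shared receptor chain for IL-22 and IL-10, had -0.68 (standard error 0.17, limma adjusted p = 0.121). Il6st, the gp130 chain, had 0.41 (standard error 0.19, limma adjusted p = 0.202). At an unadjusted p of 0.05 or less these were the only 3 of the list. Of 14 tested genes of IL-17 signaling and microbial sensing, 7 were higher and 7 lower, with a median of 0.02, and Irak1, a kinase downstream of Toll-like receptors, had the smallest p, with 0.47 (standard error 0.15, limma adjusted p = 0.125). Of the 3 tested genes for Reg receptors and processing, Egfr, the epidermal growth factor receptor, had 0.59 (standard error 0.20, limma adjusted p = 0.128) and all 7 Chd8L+/- libraries above its WT median. Extl3, described as a receptor for Reg proteins, ranged from 300 to 400 normalized counts in WT and from 337 to 433 in Chd8L+/- (log2 fold change 0.12, limma adjusted p = 0.524).

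Other antimicrobial lectins and peptides mostly had negative fold changes. Of 15 tested, 4 were higher and 11 lower, with a median log2 fold change of -0.30, and 0 passed the adjusted threshold of limma. At an unadjusted p of 0.05 or less, 2 were higher and 5 lower. Some of these genes, Ang4 and Mptx2 among them, are also in the Paneth or goblet cell lists, so the lists are not separate observations. Ang, a secreted ribonuclease, had 175 to 300 normalized counts in WT and 73.8 to 156 in Chd8L+/-, and was the 1 gene of the list whose genotypes did not overlap (log2 fold change -0.93, standard error 0.20, limma adjusted p = 0.121). Its bactericidal relative Ang4 had -1.93 (standard error 0.54, limma adjusted p = 0.121), the galectin Lgals3 -1.13 (standard error 0.32, limma adjusted p = 0.121) and the pentraxin Mptx2 -1.17 (standard error 0.35, limma adjusted p = 0.121). Like Reg4, Ang4 was lower than every WT library in 5 of 7 Chd8L+/- libraries, with replicates 1 and 6 the exceptions.

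**Figure D3:**
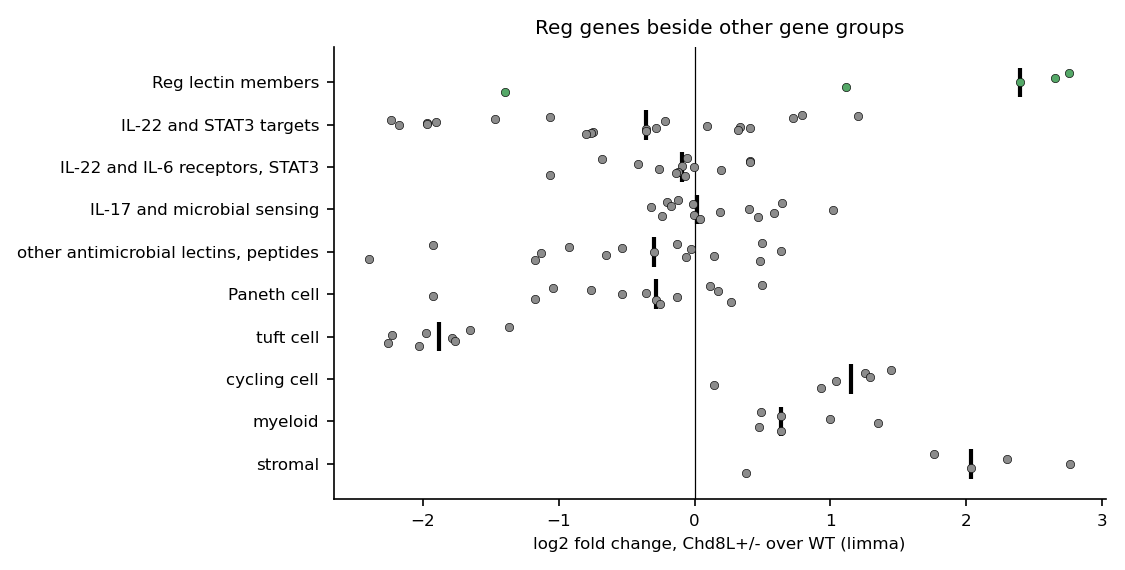
Log2 fold changes (Chd8L+/- over WT, limma) of the 5 Reg genes (green) and of single genes of 9 other lists (grey), with a bar at each median. Reg3b, Reg3g and Reg3a lie at 2.40 to 2.76, to the right of all 21 genes listed as IL-22 and STAT3 targets, whose median is -0.36.

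Several technical and cellular measures differed between libraries along with the Reg genes. Chd8 itself was higher in all 7 Chd8L+/- libraries (1297 ± 123, SD, n = 7) than in all 5 WT libraries (953 ± 85.5, SD, n = 5), with a log2 fold change of 0.44 (limma adjusted p = 0.121). Counting over the whole gene includes the exons that are not deleted, so this count does not check the deletion. On the first principal component, which held 39.7% of the variance, WT replicate 2 lay at 41.0, beside Chd8L+/- replicates 3, 4 and 5 at 40.5 to 42.7 and apart from the other WT libraries at -67.5 to -26.2. These 4 libraries were 4 of the 5 with the most Reg3b. Markers of stromal cells were also higher. All 5 tested stromal markers were higher in Chd8L+/-, 3 of them at an unadjusted p of 0.05 or less, and their summed level ranged from 105 to 514 normalized counts in WT and from 174 to 1528 in Chd8L+/-, with WT replicate 2 and Chd8L+/- replicate 5 the highest of their groups. The defining collagen genes were at or near 0 in some libraries, with Col3a1 between 0 and 64.9 in WT and between 18.2 and 308 in Chd8L+/-. All 8 tuft cell markers were lower, each with p of 0.05 or less before adjustment, and summed to 2260 to 21958 in WT and 1285 to 9312 in Chd8L+/-, and all 6 cycling markers were higher, with 2420 to 10076 and 6090 to 10485. The 6 myeloid markers summed to 1080 to 3052 in WT and 1632 to 3696 in Chd8L+/-. Pancreatic acinar genes, which mark a tissue that also makes Reg proteins, were detected, with a summed level of 1752 to 6562 in WT and 546 to 5859 in Chd8L+/-. All 5 tested had a negative log2 fold change, with Clps, the colipase, at -1.77 (standard error 0.59, limma adjusted p = 0.126) and Pnliprp1, a lipase relative, at -2.36 (standard error 0.99, limma adjusted p = 0.170). Of 10 enterocyte markers 9 had a negative log2 fold change, with a median of -0.57, and 2 of them had p of 0.05 or less before adjustment. The enterocyte markers summed to 333566 to 780106 in WT and 287015 to 646768 in Chd8L+/-. All 6 stem cell markers had a positive one, with a median of 0.49, 1 of them with p of 0.05 or less before adjustment, and summed to 5536 to 17329 and 10820 to 20493. Genes typical of the proximal small intestine summed to 121390 to 194466 in WT and 55397 to 282564 in Chd8L+/-. Chd8L+/- replicates 5 and 3, richest in Reg3b, had the lowest sums, 55397 and 69547, and replicate 7, poorest in that group, the highest. Chd8L+/- replicate 6, also poor in Reg3b, had 106507. A large part of these sums was Apoa4, at 21845, 24189 and 173140 normalized counts in Chd8L+/- replicates 5, 3 and 7. Apoa4 is also among the enterocyte markers, so the sums are not a measure of gut region alone. Distal small intestine genes summed to 53166 to 122594 and 37602 to 158619, and colon genes to 7076 to 22365 and 7681 to 30124. The part of these measures in the Reg differences was not tested.

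The calls depended on how WT replicate 2 was weighed, and also on the test and the block used. Without WT replicate 2, limma called 27.6% of all genes and 4 of the 5 members, Reg3b (log2 fold change 3.37, limma adjusted p = 0.0203), Reg3g (3.26, limma adjusted p = 0.0303), Reg3a (3.08, limma adjusted p = 0.00292) and Reg4 (-1.61, limma adjusted p = 0.0355). With limma array weights, which gave that library the lowest weight of 0.277, 30% of all genes and the same 4 members were called. With the opening letter of the library name as a block, 3.52% of all genes and, of the members, Reg3b and Reg3g were called. DESeq2 on the recovered reads called 6.44% of all genes, and of the members again Reg3b (adjusted p = 0.0422) and Reg3g (adjusted p = 0.0383). The quasi-likelihood test of edgeR called 5 genes and none of the members, of which Reg3b, Reg3g and Reg3a were higher and Reg4 lower before adjustment (p of 0.05 or less). Adding 1 surrogate variable left log2 fold changes of 0.45 for Reg3b, 0.35 for Reg3g and -0.60 for Reg4 (limma adjusted p = 0.962, 0.98 and 0.938). That variable itself ran largely with genotype. It was -0.504 to -0.181 in WT libraries other than replicate 2, at 0.333, and -0.0404 to 0.314 in Chd8L+/-. Adjusting for it can therefore also take out part of the genotype difference.

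**Figure D4:**
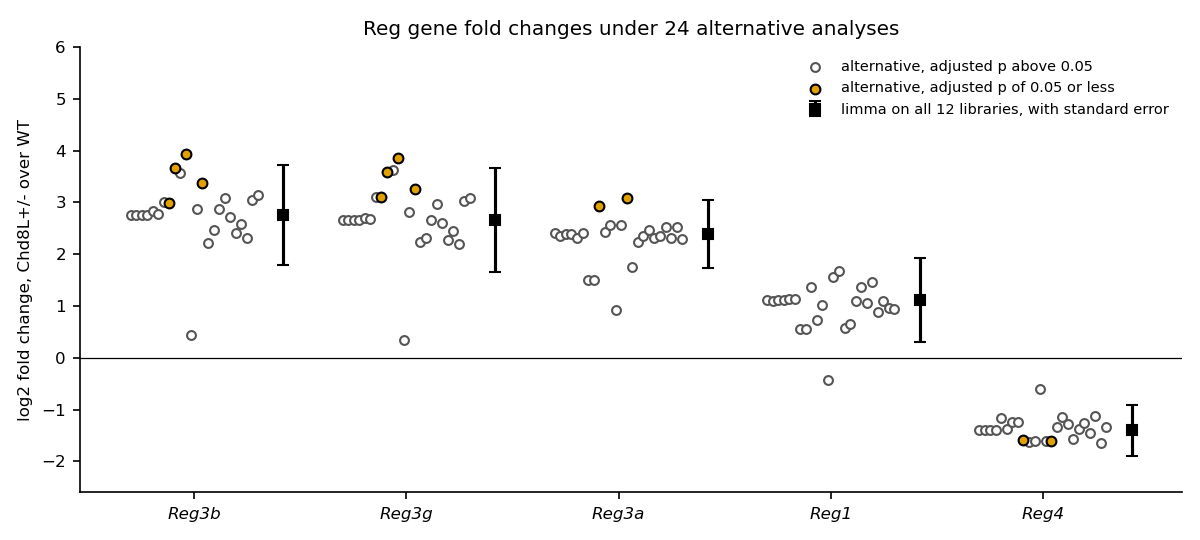
Log2 fold changes (Chd8L+/- over WT) of each Reg gene under 24 alternative analyses (circles, filled where the adjusted p was 0.05 or less) and in limma on all 12 libraries (squares, with standard errors). Reg3b, Reg3g and Reg3a stay above 0 and Reg4 below 0 in all 24, and Reg1 falls below 0 in 1.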

How the data were processed

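Gut epithelial RNA from 12 mice, 1 library each, was sequenced and mapped to mm10 with Tophat2. The authors deposited signal values, that is gene counts divided by DESeq2 size factors. All values (100%) were whole multiples of what 1 read is worth (tolerance 0.001), so reads were recovered for the count tests and for depth. Because the table is normalized, the main test was limma 3.58.1 with trend (R 4.3.3) on log2(value + 1) over the genes whose mean reached 10, with Benjamini-Hochberg adjustment at 0.05. Alternatives were other pseudocounts, filters and scalings, edgeR 4.0.16, DESeq2 1.42.0, array weights, blocks, sva 3.50.0 and each library left out in turn. Single genes were tested by exact permutation of genotypes. The p-values of the genotype comparisons judge a difference against the spread between these libraries. Those of the correlations judge r against permuted libraries. The genes named were the 5 members, their nearest relatives, the 10 genes most like the mean of Reg3b and Reg3g, the 5 most like each other member, and up to 4 genes with the smallest p in a list, with Extl3, Saa1, Nos2 and Lcn2 outside that rule and named after their values were seen. Members and lists were chosen with earlier results of these data known. The scripts were tested on simulated data.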

Additional observations from a re-analysis of the deposited data

How the results depend on the processing

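Under 24 alternatives Reg3b, Reg3g and Reg3a kept a positive and Reg4 a negative log2 fold change, and Reg1 turned to -0.42 with 1 surrogate variable. The number of genes called by limma, 3 on all libraries, was 5 with edgeR, 811 with DESeq2, 3842 with array weights, 451 with the letter block and 0 to 3534 with a library left out. Log2 fold changes past the threshold were 2.99, 3.66 and 3.94 for Reg3b and 3.10, 3.58 and 3.86 for Reg3g (DESeq2, array weights, letter block), and 2.93 for Reg3a and -1.58 for Reg4 (array weights). Each library left out in turn gave 2.22 to 3.37 for Reg3b, 2.19 to 3.26 for Reg3g, 1.76 to 3.08 for Reg3a, 0.58 to 1.68 for Reg1 and -1.65 to -1.13 for Reg4, with limma calls only without WT replicate 2. The exact permutation test lost Reg4 on shares of all reads (-1.28). The log2 ratio of Reg3b to Reg3g differed by -0.0018 to 0.20, below 0 without WT replicate 3. Within the 7 Chd8L+/- libraries r was -0.24 for Reg3b and Reg1, -0.28 for Reg3g and Reg1, -0.16 for Reg3a and Reg1 and 0.17 for Reg1 and Reg4, the last 0.01 without WT replicates 3 and 4. The cause of these shifts was not tested.

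With the replicate number as a block, 0 genes were called (Reg3b 3.57, limma adjusted p = 0.220). Libraries sharing a replicate number correlated at -0.344 to 0.189 and only replicate number 1 correlated best with its own. These values gave no sign of pairing by replicate number, but they cannot show that the mice were unpaired. The number inside the library names is a different one, and pairing by it was not tested.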

Other observations

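The genes closest in pattern to each remaining Reg gene differed from one member to the next. Reg4 was followed most closely by Defa25 (r = 0.946 over 12 libraries), Homer3 (0.942), Colca2 (0.938), Prss35 (0.935) and Defa-ps1 (0.935). Defa25 is a Paneth cell alpha-defensin whose reads can be shared with near-identical copies, so its level is uncertain. Defa25 ranged from 115 to 261 normalized counts in WT and from 49.2 to 212 in Chd8L+/- libraries (log2 fold change -1.03, standard error 0.37). Reg3a was followed by Dmd (r = 0.949), Atm (0.948), D130043K22Rik (0.945), Atrx (0.942) and Gabpb2 (0.938), of which Dmd encodes dystrophin, Atm the DNA damage kinase and Atrx a chromatin remodeler. Atm ranged from 67.4 to 284 in WT and from 211 to 320 in Chd8L+/- libraries. Reg1 was followed by Ugt2b38 (r = 0.920), Wnk4 (0.911), Ugt2b5 (0.906), Caprin2 (0.906) and Ces2g (0.896), of which Ugt2b38 and Ugt2b5 are glucuronosyltransferases with near-identical relatives and Ces2g is a carboxylesterase. These likenesses are descriptions over libraries that share genotype and scaling.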
